A study of Homo sapiens with 6 samples.

Results

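The transcription factor p53 is held at a low level in unstressed cells by the ubiquitin ligase MDM2 and its partner MDM4, and is released from them by DNA damage and other stresses. Active p53 binds a response element made of a pair of adjoining half-sites and switches on genes that stop the cell cycle, repair DNA, supply nucleotides, alter metabolism and, in some cells, trigger apoptosis. MDM2 is itself such a target, so that p53 and MDM2 form a feedback loop. The 9 genes described here are the regulators MDM2 and MDM4 and the direct targets CDKN1A, GDF15, ZMAT3, SESN1, TP53I3, RRM2B and PHLDA3, picked by gene name out of the 32679 genes of the table.

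Their expression was measured by RNA-seq of poly(A) RNA in the ovarian cancer line HEY, in 3 samples with a control hairpin (shNC) and 3 samples with a hairpin against PQBP1 (shPQBP1), a splicing factor that binds polyglutamine tracts. The hairpins were delivered by lentivirus into stable lines selected with puromycin. By the labels all 6 samples were taken at day 3, and doxycycline (1 µg/ml) was given to the shPQBP1 cells but not to the shNC cells, so that the effects of the hairpin and of doxycycline cannot be told apart. Levels are given as FPKM, read fragments scaled to transcript length and sample depth, which allows levels of different genes to be set side by side per length.

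PQBP1 itself (ENSG00000102103) was at 7.18, 6.67 and 6.93 FPKM in the shNC samples and at 1.68, 1.72 and 1.44 FPKM in the shPQBP1 samples, a 4.29-fold fall of the means. Its log2 fold change was -2.04 ± 0.10 (SE, n = 3 and 3, adjusted p = 0.00154, limma with Benjamini-Hochberg adjustment over all tested genes). The 6 samples held 278286 to 318484 FPKM in sum, and 26.5 to 29.8% of the genes were listed at 0. The number of reads per sample is unknown, so that no counting error can be given. Sample shNC 1 had the lowest correlations with the other samples (Pearson's r across genes 0.926 to 0.955). The log2 fold changes of the tested genes fell with the GC content of their transcripts (Spearman's rho of -0.459 over 11385 genes, a description, since genes are not replicates). Of the ovarian and epithelial markers, PAX8, KRT7, KRT8 and KRT18 were measured in every sample, whereas MUC16 and CDH1 were at or near 0. The mesenchymal markers CDH2 and VIM were also measured in every sample, at 20.34 to 24.32 and 1111.87 to 1342.76 FPKM. WT1 was low, at 0.63 to 0.71 FPKM in the shNC samples and 0.31 to 0.45 FPKM in the shPQBP1 samples. EPCAM was at 0.91 to 1.13 and 0.79 to 1.02 FPKM in turn. PAX8 was higher with knockdown, at 12.33 to 15.7 and 18.41 to 24.08 FPKM (adjusted p = 0.102 by limma). PTPRC, the common leukocyte marker, was listed at 0 in all 6 samples, and the 5 fibroblast markers stayed at or under 0.47 FPKM. CD68, a lysosomal protein listed as a macrophage marker, was at 9.12 to 15.57 FPKM in the shNC samples and at 12.14 to 21.16 FPKM in the shPQBP1 samples, while LYZ did not exceed 0.09 FPKM. Of the endothelial markers, CDH5 was at 2.11 to 2.96 FPKM in the shNC samples and at 3.1 to 3.64 FPKM in the shPQBP1 samples (adjusted p = 0.151 by limma), PECAM1 was at 0.23 to 0.25 and 0.02 to 0.06 FPKM, and VWF did not exceed 0.04 FPKM. The part of such cells in the results below was not tested.

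Sequences that match the p53 response element were searched within 5000 bases of the start of each gene's canonical transcript (hg38, GENCODE release 44), since they are the feature by which p53 recognises such targets. The consensus of 20 bases, read as 2 half-sites of 10 bases with no spacer, was allowed 2 mismatches outside the C and G at positions 4 and 7 of each half-site. It is its own reverse complement, so that a search of 1 strand covers both. A match was found at 5 of the 9 genes, beside 7.5% of the 11385 tested genes searched. The sequences of 4 of them are shown on the strand of the gene, with the central 4 bases of each half-site in capitals.
CDKN1A: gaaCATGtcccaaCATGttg
GDF15: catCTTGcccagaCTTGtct
MDM2: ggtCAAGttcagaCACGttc
ZMAT3: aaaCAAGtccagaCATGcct
The CDKN1A match lies at chr6:36676449-36676468, with its first base at -2265 from the transcript start and 2 mismatches. That of GDF15 lies at chr19:18385308-18385327, at -850 from the start of the canonical transcript, also with 2 mismatches. The MDM2 match at chr12:68808923-68808942 lies in intron 1, 746 bases after the start, with 2 mismatches. The ZMAT3 match at chr3:179070188-179070207 also lies in intron 1, 1602 bases after the start, with no mismatch, which 0.2% of the genes searched had. RRM2B holds a match with 1 mismatch in its intron 1, and MDM4, SESN1, TP53I3 and PHLDA3 hold none in this window. These matches are descriptions of the sequence and not measured sites of binding.

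In the shNC samples the 9 genes differed widely in level. CDKN1A was the highest, at 91.8 ± 8.14 FPKM (mean ± SD, n = 3), above 95.4% of the tested genes by its mean over the 6 samples. It was followed by RRM2B (25.2 ± 10.3) and ZMAT3 (24.1 ± 4.40), whose ranges overlapped, then PHLDA3 (mean 15.2, range 13.89 to 17.35) and MDM2 (11.4 ± 2.42). TP53I3 (4.75 ± 0.454), SESN1 (4.73 ± 1.63) and GDF15 (3.59 ± 0.407) lay close together, each overlapping the next in order. MDM4 was the lowest, at 1.05 ± 0.597 FPKM. In the shPQBP1 samples the first 6 places were taken by the same genes in the same order, with CDKN1A now overlapping RRM2B, and GDF15 (4.70 ± 0.387) stood before SESN1 (4.62 ± 1.08), with overlapping ranges.

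**Figure D1:**
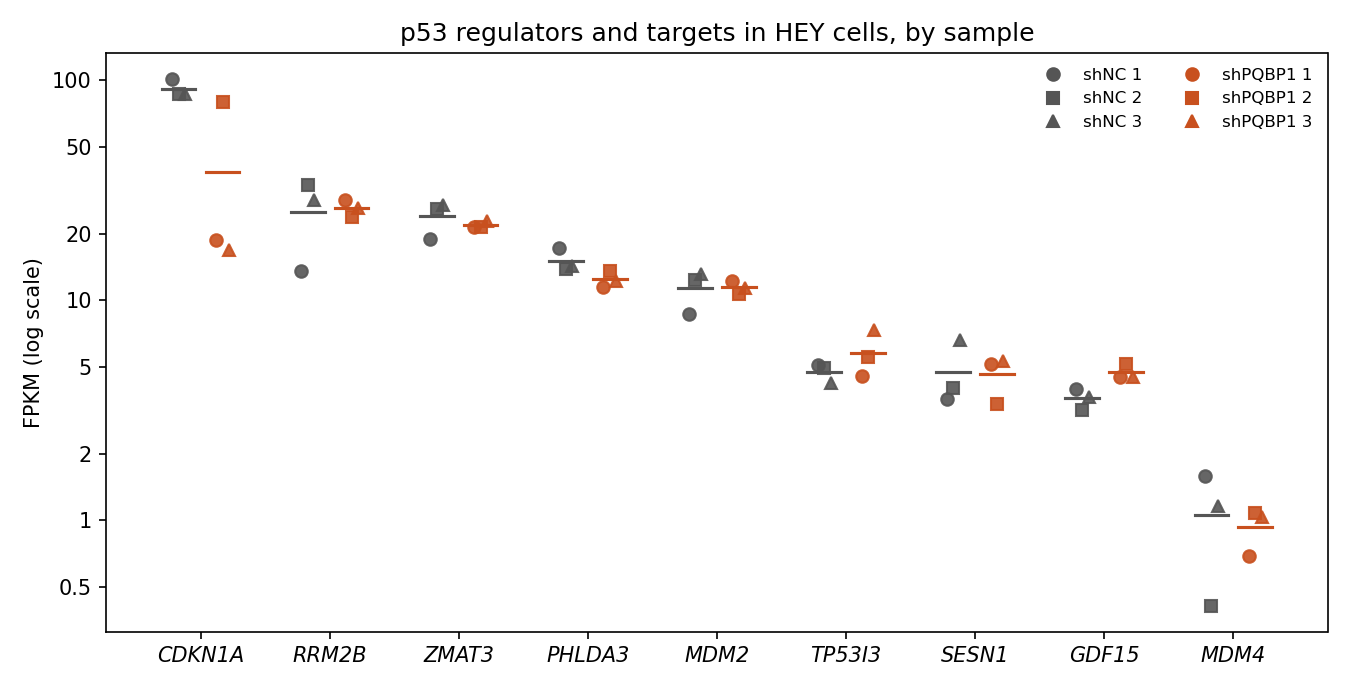
FPKM of the 9 genes on a log axis, in the order of their mean in the shNC samples. Each symbol is 1 sample (grey, shNC; orange, shPQBP1; circle, square and triangle, replicates 1, 2 and 3) and each short line a group mean. CDKN1A is near 18 FPKM in shPQBP1 replicates 1 and 3 and at 79.36 FPKM in replicate 2, and the 2 groups lie close together in the other 8 genes.

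None of the 8 tested genes passed an adjusted p of 0.05, a threshold passed by 2.91% of all 11413 genes tested (332 genes). Of the 8 genes, 2 had an unadjusted p under 0.05, CDKN1A lower and GDF15 higher with PQBP1 knockdown, which is 25.0% beside 23.6% of all tested genes. CDKN1A alone also differed by more than 2-fold at that p, as did 1.52% of all tested genes. The groups did not overlap in 3 of the 9 genes (CDKN1A, PHLDA3 and GDF15), beside 34.4% of all tested genes. The median log2 fold change of the 8 genes was 0.01, and that of all tested genes 0.02. MDM4, with a mean of 0.995 FPKM over the 6 samples, fell just under the minimum mean of 1 FPKM and was not tested.

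Neither regulator differed between the groups by more than the spread of the samples. MDM2 (ENSG00000135679, chr12:68808177-68845544), the ubiquitin ligase that marks p53 for degradation, was at 8.69, 12.39 and 13.23 FPKM in the shNC samples and at 12.3, 10.72 and 11.42 FPKM in the shPQBP1 samples. All 3 knockdown samples lay within the range of the controls, and shNC 1 was the lowest sample. The log2 fold change of MDM2 was 0.03 ± 0.17 (SE), with a 95% interval from -0.38 to 0.44 and an adjusted p of 0.933 by limma. Its sign turned when shNC 1 was left out (-0.16, adjusted p = 0.304 by limma) and when the trend with GC content and transcript length was removed (-0.22, adjusted p = 0.0982 by limma). That fit takes out GC content and length together and is called removal of the GC trend below. The share of each was not tested.

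MDM4 (ENSG00000198625, chr1:204516379-204558120), the partner of MDM2 that blocks the activation domain of p53, was at 1.59, 0.41 and 1.16 FPKM in the shNC samples and at 0.69, 1.08 and 1.04 FPKM in the shPQBP1 samples. Its highest and lowest samples were both controls, which differed 3.88-fold. The difference of the mean log2 values was -0.01 (two-sided exact permutation test p = 1). It turned with the sample left out, from -0.52 without shNC 2 to 0.35 without shNC 1.

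CDKN1A (ENSG00000124762, chr6:36676460-36687337) encodes p21, the inhibitor of cyclin-dependent kinases through which p53 halts the cell cycle. It was at 101.15, 87.08 and 87.01 FPKM in the shNC samples and at 18.76, 79.36 and 16.95 FPKM in the shPQBP1 samples. The groups did not overlap, but the knockdown samples fell apart into 2 levels: replicates 1 and 3 were at 20.4 and 18.5% of the shNC mean, 4.89- and 5.41-fold lower, and replicate 2 was at 86.5% of it. PQBP1 itself was as low in replicate 2 as in the other knockdown samples, at 1.72 FPKM.

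The log2 fold change of CDKN1A over all samples was -1.64 ± 0.58 (SE), with a 95% interval from -3.04 to -0.23, an unadjusted p of 0.029 and an adjusted p of 0.166 by limma. An exact permutation test (two-sided) gave 0.1, the lowest p that 3 samples against 3 allow. Without shPQBP1 replicate 2 the log2 fold change was -2.35 with an adjusted p of 0.00928 by limma, and leaving out any single sample gave -2.35 to -1.24 with adjusted p of 0.00928 to 0.383. With the GC trend removed it was -1.46. The antisense gene DINOL, which overlaps CDKN1A, did not exceed 0.63 FPKM in any sample.

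PHLDA3 (ENSG00000174307, chr1:201464278-201469237), a small protein with a pleckstrin homology domain that restrains AKT at the membrane, was at 17.35, 13.89 and 14.27 FPKM in the shNC samples and at 11.55, 13.57 and 12.31 FPKM in the shPQBP1 samples. All knockdown samples lay below all controls, with replicate 2 close to the lowest control. Its log2 fold change of -0.28 ± 0.12 (SE) had an unadjusted p of 0.0542 and an adjusted p of 0.218 by limma, with a 95% interval from -0.56 to 0.01. After removal of the GC trend it was -0.09.

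GDF15 (ENSG00000130513, chr19:18374731-18389176), a secreted cytokine of the TGF-beta superfamily that answers to p53 and also to the integrated stress response, was at 3.97, 3.16 and 3.63 FPKM in the shNC samples and at 4.47, 5.15 and 4.49 FPKM in the shPQBP1 samples. Every knockdown sample lay above every control. The means differed 1.31-fold, with a log2 fold change of 0.38 ± 0.12 (SE, unadjusted p = 0.0163, adjusted p = 0.132 by limma; two-sided exact permutation p = 0.1). The transcript of GDF15 has 1200 bases and is rich in G and C (62.9%, beside a median of 47.5% over the tested genes). With the GC and length trend removed the log2 fold change of GDF15 was 0.60 with an adjusted p of 0.0124 by limma.

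ZMAT3 (ENSG00000172667, chr3:178960121-179072215), a zinc finger protein that binds RNA and acts in growth suppression, was at 19.06, 26.07 and 27.18 FPKM in the shNC samples and at 21.67, 21.66 and 23.03 FPKM in the shPQBP1 samples. The knockdown samples lay close together inside the control range. The log2 fold change was -0.11 ± 0.15 (SE, adjusted p = 0.661 by limma), and -0.40 with an adjusted p of 0.038 by limma once the GC and length trend was removed. The transcript has 38.2% G and C and 8936 bases.

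SESN1 (ENSG00000080546, chr6:108984309-109094846), a sestrin that restrains mTORC1, was at 3.58, 4.01 and 6.6 FPKM in the shNC samples and at 5.16, 3.37 and 5.32 FPKM in the shPQBP1 samples. The ranges overlapped widely, and the log2 fold change was -0.01 ± 0.28 (SE, 95% interval -0.69 to 0.66, adjusted p = 0.981 by limma).

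TP53I3 (ENSG00000115129, chr2:24077433-24085861), a quinone oxidoreductase also known as PIG3, was at 5.07, 4.95 and 4.23 FPKM in the shNC samples and at 4.54, 5.52 and 7.32 FPKM in the shPQBP1 samples. Replicate 3 of the knockdown was the highest and replicate 1 lay within the controls. The log2 fold change was 0.26 ± 0.18 (SE, adjusted p = 0.407 by limma), 0.08 without shPQBP1 replicate 3, 0.42 without shPQBP1 replicate 1 and 0.46 with the GC trend removed (adjusted p = 0.176 by limma).

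RRM2B (ENSG00000048392, chr8:102204502-102238961), the p53-induced subunit of ribonucleotide reductase, was at 13.67, 33.37 and 28.52 FPKM in the shNC samples and at 28.59, 23.93 and 26.44 FPKM in the shPQBP1 samples. Sample shNC 1 stood apart, at 44.2% of the mean of the other controls. The log2 fold change was 0.16 ± 0.33 (SE, adjusted p = 0.782 by limma), and turned to -0.23 without shNC 1 and to -0.14 with the GC trend removed.

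**Figure D2:**
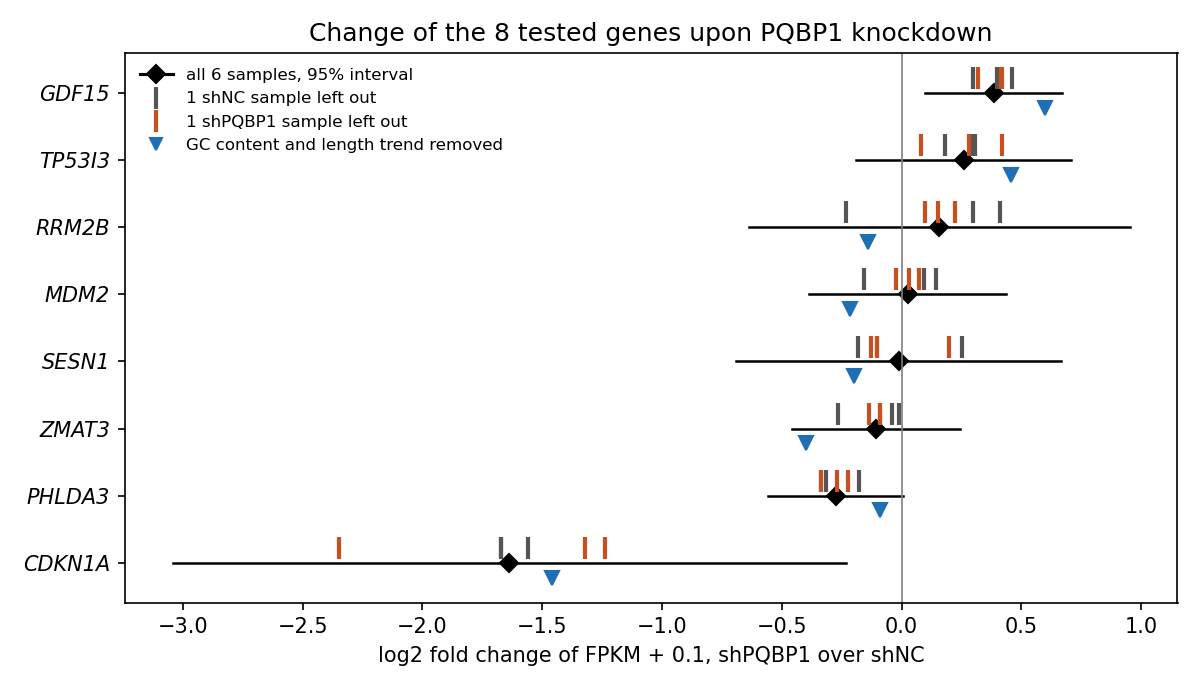
Log2 fold change of the 8 tested genes, shPQBP1 over shNC, on the log2(FPKM + 0.1) scale. Diamonds and lines are the value over all 6 samples with its 95% interval, ticks the values with 1 sample left out (grey, an shNC sample; orange, an shPQBP1 sample) and triangles the values after removal of the trend with GC content and length. CDKN1A has the widest spread, from -2.35 to -1.24, and the ticks of MDM2, SESN1 and RRM2B lie on both sides of 0.

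The 9 genes differed in their pattern over the 6 samples. On the log2 scale MDM2 was closest to RRM2B (Pearson's r 0.941 over 6 samples, a description only) and ZMAT3 to MDM2 (0.869), all 3 of which were lowest in shNC 1. CDKN1A was closest to PHLDA3 (0.816), and GDF15 had no close partner among the 9, the nearest being MDM4 (0.437). Of all tested genes those closest to CDKN1A were MAVS (0.994), CAMK1 (0.991) and IGF2R (0.986). MAVS, the mitochondrial adaptor of RNA sensing, was at 7.98, 6.85 and 7.23 FPKM in the shNC samples and at 3.08, 6.2 and 3.05 FPKM in the shPQBP1 samples, with the same split between replicates, whereas IGF2R moved by a log2 fold change of -0.05 only. The genes closest to MDM2 were CEBPZOS (0.994), DDHD2 (0.992) and TRAF5 (0.991), and those closest to GDF15 were CARD6 (0.99), IL18 (0.988) and SUMF1 (0.986).

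The wider network of regulators held 27 tested genes of 32 listed. None passed an adjusted p of 0.05 by limma, while an unadjusted p under 0.05 was reached by 5 (18.5%, beside 23.6% of all tested genes), of which 3 were higher and 2 lower. The largest of these 3 was TP53BP2, which encodes ASPP2, a cofactor that steers p53 toward apoptotic targets, at 14.76, 14.69 and 15.91 FPKM in the shNC samples and 20.56, 19.28 and 19.31 FPKM in the shPQBP1 samples (log2 fold change 0.38, adjusted p = 0.0549 by limma, and 0.0246 with the GC trend removed). TP53BP1, a chromatin reader at DNA breaks, had a log2 fold change of 0.27. PPM1D, the phosphatase WIP1 that turns off the p53 response and is itself a target, was at 8.06, 9.33 and 9.44 FPKM in the shNC samples and 7.22, 7.02 and 6.88 FPKM in the shPQBP1 samples (-0.34, adjusted p = 0.106 by limma, and 0.0351 with the GC trend removed). RPL5, a ribosomal protein that can bind MDM2, had a log2 fold change of -0.36, a value that is uncertain because near-identical processed copies could share its reads. CDKN2A, which encodes the MDM2 inhibitor p14ARF, was listed at 0 in 5 samples and at 0.01 FPKM in 1.

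Of 64 other direct targets 57 were tested, and 3 passed an adjusted p of 0.05 by limma, beside 2.91% of all tested genes. PERP and TGFA were higher and CD82 was lower. At an unadjusted p under 0.05 there were 20 (35.1%, beside 23.6% of all tested genes), 5 higher and 15 lower, where all tested genes gave 1353 higher and 1336 lower. The median log2 fold change of the 57 was -0.04. A match to the response element was found near 21 of the 57 (36.8%). With the GC trend removed 9 of the 57 passed an adjusted p of 0.05, as did 938 of all 11385 genes in that fit. With any 1 sample left out 0 to 4 did, beside 30 to 464 of all 11413 tested genes.

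Among 12 tested genes of growth arrest and feedback none passed the adjusted threshold by limma, and at the unadjusted threshold 1 was higher and 3 were lower (33.3%, beside 23.6% of all tested genes). PLK2, a polo-like kinase, had a log2 fold change of 0.23, SERTAD1 one of -0.40, CCNG1, which encodes cyclin G1, one of 0.17, and GADD45A, a stress sensor, one of 0.02. CCNG1 and GADD45A, at mean levels of 29.8 and 166.9 FPKM in the controls, overlapped between the groups.

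Of 16 tested genes of cell death 1 rose and none fell at an adjusted p under 0.05, which 2.91% of all tested genes passed. At the unadjusted threshold 1 was higher and 6 were lower (43.8%, beside 23.6% of all tested genes), with a list median of -0.21. PERP, a membrane protein of desmosomes and apoptosis, rose from 25.1, 25.26 and 24.96 FPKM in the shNC samples to 33.18, 34.63 and 36 FPKM in the shPQBP1 samples (log2 fold change 0.46 ± 0.07 SE, adjusted p = 0.0268 by limma). With the GC trend removed its log2 fold change was 0.28 and the call was lost (adjusted p = 0.156 by limma). BAX, which permeabilises mitochondria, was at 64.41, 50.8 and 52.76 FPKM in the shNC samples and 41.5, 43.86 and 42.57 FPKM in the shPQBP1 samples (-0.38, adjusted p = 0.107 by limma), with a log2 fold change of -0.18 (adjusted p = 0.0581 by limma) once the GC trend was removed. These values are for the whole gene and do not separate its splice forms. The study reported more full-length BAX mRNA and less of a short form that skips an exon upon PQBP1 depletion. Its methods included long-read sequencing in HEY cells and qPCR in another ovarian cancer line. It also reported more BAX protein in ovarian cancer lines.

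BBC3, which encodes the BH3-only protein PUMA, had a log2 fold change of -0.33 (adjusted p = 0.167 by limma), and CYFIP2 one of -0.36. PMAIP1, which encodes NOXA, another BH3-only protein, was at 10.69, 27.34 and 12.48 FPKM in the shNC samples and 15.07, 27.05 and 26.93 FPKM in the shPQBP1 samples, with overlapping groups (0.53, adjusted p = 0.44 by limma). FAS, a death receptor, had a log2 fold change of 0.16.

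Among 7 tested genes of DNA repair and nucleotide supply, DDB2, a sensor of ultraviolet damage, was the only one with an unadjusted p under 0.05 (14.3% of the list, beside 23.6% of all tested genes) and was lower in every knockdown sample (-0.43, adjusted p = 0.138 by limma). XPC, which acts in the same pathway, had a log2 fold change of 0.09. Of 12 tested genes of metabolism, redox and growth signalling 1 had an unadjusted p under 0.05 (8.33%, beside 23.6% of all tested genes). This was TGFA, a ligand of the EGF receptor, at 6.57, 5.41 and 6.04 FPKM in the shNC samples. It rose to 9.38, 10.71 and 10.58 FPKM in the shPQBP1 samples (log2 fold change 0.76 ± 0.11 SE, adjusted p = 0.0241 by limma). SESN2, the sestrin related to SESN1, had a log2 fold change of -0.16.

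The group of 10 tested surface, secreted and adhesion genes held the gene with the largest fall among the other targets. CD82, a tetraspanin that suppresses metastasis, fell from 6.57, 6.99 and 6.12 FPKM in the shNC samples to 1.49, 2.55 and 2.95 FPKM in the shPQBP1 samples, a 2.82-fold difference of the means (log2 fold change -1.51 ± 0.24 SE, adjusted p = 0.0345 by limma). KITLG, the ligand of the KIT receptor, was at 5.09, 10.97 and 9.53 FPKM in the shNC samples and 20.71, 15.87 and 18.78 FPKM in the shPQBP1 samples (1.17, adjusted p = 0.0912 by limma), and with the GC trend removed it passed the threshold (0.87, adjusted p = 0.0131 by limma). TRIM22 had a log2 fold change of 0.36 and NINJ1 one of -0.51. With the GC trend kept, only CD82 of the 10 passed an adjusted p of 0.05 by limma, beside 2.91% of all tested genes. At an unadjusted p under 0.05, 2 of the 10 were higher and 5 lower (70.0%, beside 23.6% of all tested genes). When samples were dropped singly, the calls of PERP and TGFA held without shNC 1 only and that of CD82 without shPQBP1 1 only. Over all alternatives the adjusted p of PERP, TGFA and CD82 spanned 0.0151 to 0.222, 0.015 to 0.195 and 0.0266 to 0.174 in turn by limma.

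**Figure D3:**
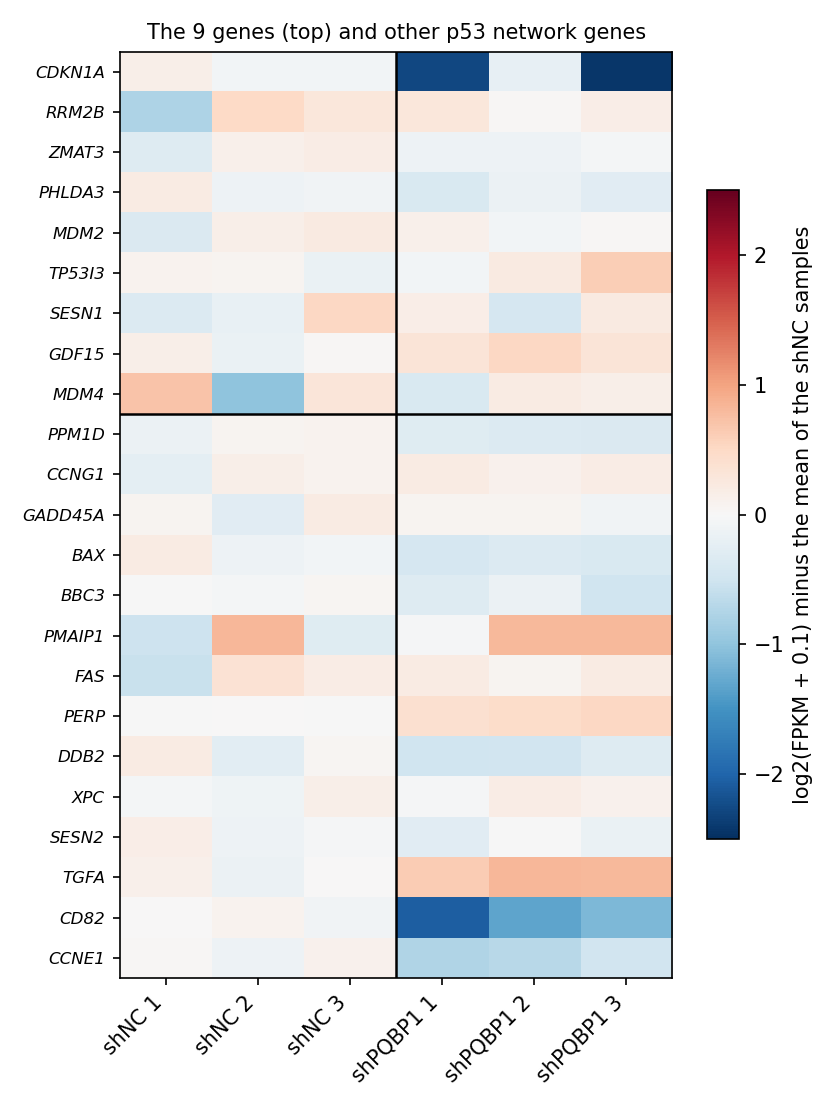
Log2(FPKM + 0.1) of each sample minus the mean of the 3 shNC samples, for the 9 genes above the horizontal line and 14 other genes of the p53 network below it, with shNC samples left and shPQBP1 samples right of the vertical line. CDKN1A is dark blue in shPQBP1 replicates 1 and 3 and pale in replicate 2, CD82 is blue in all 3, and TGFA and PERP are red in all 3.

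Cell cycle genes that p21 lowers through the DREAM repressor complex were looked at beside CDKN1A. All 24 were tested, and 1 passed an adjusted p of 0.05 by limma, beside 2.91% of all tested genes. An unadjusted p under 0.05 was reached by 5, all of them lower, with a list median of 0.01. That is 20.8% at the unadjusted threshold, near the 23.6% of all tested genes. CCNE1, which encodes cyclin E1, fell from 3.46, 3.12 and 3.65 FPKM in the shNC samples to 1.99, 2.08 and 2.4 FPKM in the shPQBP1 samples (log2 fold change -0.64, adjusted p = 0.0482 by limma), at a like level in all 3 knockdown samples. The calls of CCNE1 and of ATF3, described next, held in none of the fits with 1 sample left out. CDC25C, a phosphatase at mitotic entry, had a log2 fold change of -0.43.

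Genes of the integrated stress response under ATF4, some of which share control with GDF15 and SESN2, gave 13 tested genes. An adjusted p of 0.05 by limma was passed by 1, beside 2.91% of all tested genes. At the unadjusted threshold 2 were higher and 3 were lower (38.5%, beside 23.6% of all tested genes), with a list median of -0.16. ATF3, a stress-induced transcription factor, fell from 5.79, 5.67 and 6.06 FPKM to 4.38, 3.86 and 3.82 FPKM (-0.53, adjusted p = 0.0384 by limma), and its call was lost with the GC trend removed (-0.45, adjusted p = 0.06 by limma). SLC7A11, the cystine transporter, had a log2 fold change of 0.84 (adjusted p = 0.167 by limma), which was 0.49 without shNC 1 (adjusted p = 0.0771 by limma) and 0.49 with the GC trend removed (adjusted p = 0.0484 by limma). PSAT1, an enzyme of serine synthesis, had one of 0.32 (adjusted p = 0.0537 by limma), and PPP1R15A one of -0.29.

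A list of 9 genes held paralogues of the genes described and RRM1, the large subunit that pairs with RRM2B. Of these, 7 were tested and none had an unadjusted p under 0.05 by limma. CDKN1B, which encodes the related inhibitor p27, had a log2 fold change of 0.16, with every knockdown sample above every control. RRM2, the counterpart of RRM2B that is also in the list of cell cycle genes above, was at 35.81, 18.42 and 17.6 FPKM in the shNC samples. It was at 28.2, 18.41 and 18.48 FPKM in the shPQBP1 samples, highest in replicate 1 of both groups. SESN3 and CDKN1C were below the minimum mean.

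**Figure D4:**
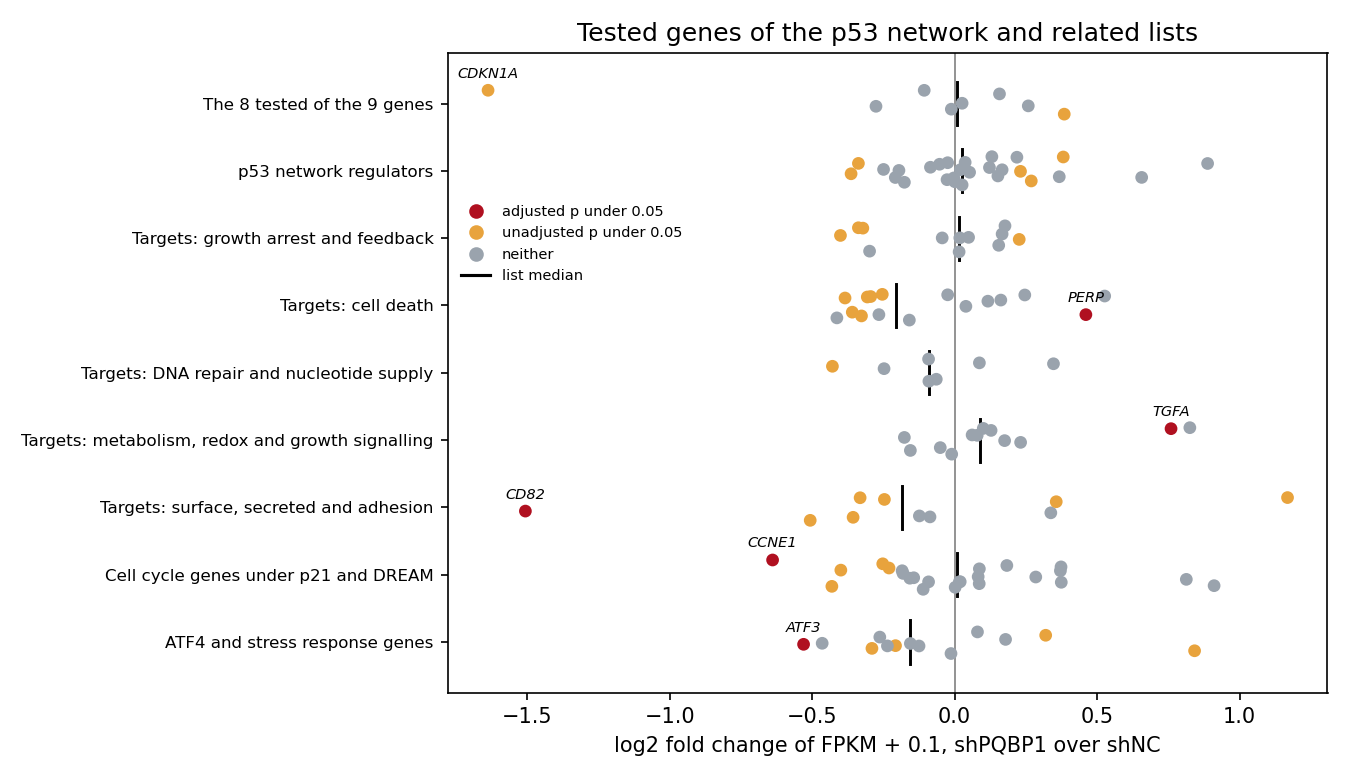
Log2 fold change of the tested genes of each list, shPQBP1 over shNC, on the log2(FPKM + 0.1) scale, with 1 point per gene spread vertically for legibility and the list median as a black line. Red points passed an adjusted p of 0.05, orange points an unadjusted p of 0.05 and grey points neither. CDKN1A lies far to the left of the other 7 tested genes of the first list, and the list medians range from -0.21 to 0.09.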

How the data were processed

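The deposited table gives, per gene, the FPKM of each of the 6 samples, rounded to 2 decimals, as deposited by the authors. Per the labels and the study's methods the authors aligned paired-end reads to hg38 with HISAT2 (version 2.2.0), processed them with SAMtools (version 1.9), estimated FPKM with StringTie (version 1.3.0) and compared groups with edgeR. The annotation release is not given in the sources used here. The authors' own fold changes, p-values, q-values and regulation calls in the same table were not used.

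Genes with a mean of at least 1 FPKM over the 6 samples (11413 of 32679) were tested on log2(FPKM + 0.1) with limma (version 3.58.1, R 4.3.3; lmFit and eBayes with trend). Tests were two-sided, and p-values were adjusted over all of these genes by the Benjamini-Hochberg method. Adding 0.1 understates changes of low genes. Single genes were also compared by exact permutation. The samples are biological triplicates by the design text. The 9 genes and the lists were chosen with earlier results of these data known. Genes named are the 9, PQBP1, 10 preset targets, some of the paralogues, cell type markers and the genes closest in pattern. So are genes past an adjusted p of 0.05 in each list and the 2 largest rises and falls at an unadjusted p under 0.05. CDKN2A, DINOL and the genes first named under Other observations lie outside this rule. Alternatives were other pseudocounts, filters and scalings, a replicate block, each sample left out, and removal of the trend with GC content and length (natural splines, 5 degrees of freedom; GENCODE release 44). The fit was tested on simulated data.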

Additional observations from a re-analysis of the deposited data

How the results depend on the processing

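The filters change how many genes are tested, so that counts of calls are given with that number. The 332 genes called of 11413 became 190 of 30717 with all genes above 0 in at least 1 sample. They became 211 of 3661 at a mean of at least 10 FPKM and 938 of 11385 with the GC and length trend removed. With 1 sample left out they became 30 to 464 of 11413. The calls among the 8 tested genes at an adjusted p under 0.05, 0 over all samples, became 2 with the GC trend removed (GDF15 and ZMAT3) and 0 to 1 with 1 sample left out (CDKN1A without shPQBP1 replicate 2). Those at an unadjusted p under 0.05, 2 over all samples, became 1 of the 5 genes still tested at a mean of at least 10 FPKM. GDF15 lay under that filter and was not tested there. They became 5 with the GC trend removed and 1 to 2 with 1 sample left out. The other direct targets called, 3 of 57 over all samples, became 1 of the 30 still tested at a mean of at least 10 FPKM. TGFA and CD82 lay under that filter and were not tested there. The count became 9 with the GC trend removed and 0 to 4 with 1 sample left out. The log2 fold change of MDM2 reversed to -0.00821 with quantile normalization and to -0.22 with the GC trend removed, and spanned -0.16 to 0.14 with 1 sample left out. That of RRM2B reversed to -0.14 with the GC trend removed and spanned -0.23 to 0.41, and that of SESN1 spanned -0.18 to 0.25. The untested log2 difference of MDM4 spanned -0.52 to 0.35 with 1 sample left out and was 0.00903 with a pseudocount of 0.01. CDKN1A, GDF15, PHLDA3, TP53I3 and ZMAT3 kept their direction in every alternative run. The causes were not tested.

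Samples that share a replicate number did not deviate together (r of -0.19, -0.14 and -0.01 for numbers 1, 2 and 3), so that the numbers were not taken as pairs. With the replicate number as a block, 0 genes of the whole table, 0 of the 8 tested genes and 0 of the other direct targets passed an adjusted p of 0.05 by limma, and 1 of the 8 had an unadjusted p under 0.05. The depth of the samples is unknown, and 3 samples a group cannot give an exact permutation p below 0.1.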

Other observations

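The split of CDKN1A between knockdown samples was looked for in all tested genes, a search made after its values were seen. It was found in 17 tested genes, a count that includes CDKN1A itself. In them shPQBP1 replicate 2 lay near the controls. Replicates 1 and 3 were both under 0.5 of the lowest control or both over 2 times the highest. Of the 17, 10 were lower, CDKN1A among them. With replicate 1 or replicate 3 as the sample near the controls, 12 and 14 genes met the same rule. Among the 10 was IER2, an immediate early gene, at 23.07, 17.79 and 18.93 FPKM in the shNC samples and at 1.04, 27.82 and 1.88 FPKM in the shPQBP1 samples. TIMM8B, a mitochondrial import chaperone, was at 31.53, 21.56 and 24.81 FPKM and at 10.22, 24.87 and 9.17 FPKM. MIR34AHG, the host gene of a microRNA that p53 induces, showed another split, at 2.48, 0.68 and 3.02 FPKM in the shNC samples and at 2.65, 0.3 and 0.04 FPKM in the shPQBP1 samples (log2 fold change -1.78, adjusted p = 0.361 by limma).

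DRAM1, a p53 target of the lysosome that acts in autophagy, was at 18.35, 6.73 and 7.28 FPKM in the shNC samples and at 31.67, 11.99 and 13.37 FPKM in the shPQBP1 samples. In both groups replicate 1 was the highest, and its log2 fold change was 0.83 with an adjusted p of 0.353 by limma. GPX1, a glutathione peroxidase, was likewise highest in replicate 1 of both groups, at 46.69 and 63.88 FPKM.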
